A study of Mus musculus with 6 samples.

Results

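ALK and LTK are receptor tyrosine kinases of the insulin receptor group, and 7 genes of their signalling system were examined in the mouse hippocampus 24 h after traumatic brain injury (TBI). The 7 members were the ligand genes Alkal1 and Alkal2, the receptor genes Alk and Ltk, and the pleiotrophin and midkine system with Ptn, Mdk and Ptprz1. They were found by symbol among the 52550 genes listed for each library. Alkal2 was taken because its difference between the groups was known to be among the lower genes with the smallest p, and the other 6 were taken for their relation to it. Of the 7 members, 6 passed the filter on low counts and Alkal1 did not.

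The 6 libraries were named Sham1 to Sham3 for the sham group (3 mice) and TBI1 to TBI3 for the TBI group (3 mice), each from a different mouse. All were male mice of the breed C57BL / 6 (C57B6/J in the methods of the study), aged 8 to 10 weeks, with no genetic change. TBI was induced with controlled cortical impact, a moderate impact of a piston on the exposed cortex over the right parietal bone, and sham mice had the anaesthesia and craniotomy without the impact. Both groups therefore carry the effects of surgery, and the methods do not say whether the hippocampi of both sides were pooled.

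ALKAL1 and ALKAL2 are small secreted proteins that bind ALK and LTK, bring the receptors together and start signalling through adaptor proteins, the RAS-ERK cascade and PI3K. ALK is best known from the developing nervous system and as an oncogene of neuroblastoma. Pleiotrophin and midkine are heparin-binding growth factors. They bind PTPRZ1, a receptor protein tyrosine phosphatase of astrocytes and oligodendrocyte precursors, and have also been linked to ALK.

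Alkal2 (ENSMUSG00000054204.6) spans 30884322 to 30893854 of chromosome 12 (GRCm38, plus strand), with 5 exons in 1 annotated transcript. Its 3′ end overlaps exonic bases of Acp1, a phosphatase gene on the opposite strand. They share the 529 bases from 30893326 to 30893854, which are 35.1% of the 1509 exonic bases of Alkal2 and leave 980 bases of its own. Whether the libraries kept the strand is not given in the sources used here, so reads on the shared bases cannot be assigned to either gene with certainty. No other member shared exonic bases with another gene. Alkal1 (ENSMUSG00000087247.3) lies on chromosome 1 from 6359218 to 6394731, Alk (ENSMUSG00000055471.6) on chromosome 17 from 71868972 to 72604627 and Ltk (ENSMUSG00000027297.14) on chromosome 2 from 119751320 to 119760431. Ptn (ENSMUSG00000029838.11) and Ptprz1 (ENSMUSG00000068748.7) are both on chromosome 6, from 36714929 to 36810220 and from 22875502 to 23052916, and Mdk (ENSMUSG00000027239.14) is on chromosome 2 from 91929805 to 91932297.

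RefSeq promoter windows of GRCm38.p6, 250 bases before to 50 after the transcript start, were matched for 5 of the 7 members, the exceptions being Alkal1 and Mdk. The windows of Alkal2, the member whose groups were separate, and Ptn, the member with the highest level, are shown, in transcript direction, with matches to the motifs searched in capitals. The Alkal2 window is chr12:30884074-30884373 on the plus strand, and that of Ptn is chr6:36810130-36810429 on the minus strand.
Alkal2: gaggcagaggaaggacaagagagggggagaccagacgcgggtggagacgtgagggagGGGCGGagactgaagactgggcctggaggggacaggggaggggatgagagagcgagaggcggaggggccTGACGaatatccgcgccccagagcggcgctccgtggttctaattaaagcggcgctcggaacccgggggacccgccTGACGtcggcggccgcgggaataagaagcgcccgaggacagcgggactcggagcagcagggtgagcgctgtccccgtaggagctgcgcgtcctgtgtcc
Ptn: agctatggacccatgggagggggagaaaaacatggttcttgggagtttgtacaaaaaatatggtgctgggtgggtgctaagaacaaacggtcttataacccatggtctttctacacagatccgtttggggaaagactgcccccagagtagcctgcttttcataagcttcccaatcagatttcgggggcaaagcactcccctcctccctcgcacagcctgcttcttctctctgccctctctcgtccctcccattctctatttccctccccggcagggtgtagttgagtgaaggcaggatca
The Alkal2 window was rich in G and C (68.3%) and held 30 CpG pairs, against medians of 52.7% and 7 over 32851 windows. The Ptn window was close to those medians, with 52.0% and 6. Of 6 motifs searched on both strands, the Alkal2 window held the GC box GGGCGG at position 58 of the window, which 35.7% of all windows hold. It also held the CRE core TGACG at positions 127 and 202, and 20.8% of all windows hold that core. The full CRE TGACGTCA, which contains the core and is in 1.79% of all windows, was in none of the 5 windows of members. The same was true of AP-1 (TGANTCA, 7.81% of all windows), the E-box CACGTG (7.15%) and TATAAA (13.6%), and the Ptn window held none of the 6 motifs.

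The estimated counts summed to between 31630936 and 41771872 per library, and a pair of libraries stood apart in marker genes. Markers of reactive astrocytes (6 genes, Gfap among them) summed to 4735 CPM (counts scaled to a common library size) in Sham2, against 711 and 712 in Sham1 and Sham3 and 628 to 1726 in TBI, so Sham2 went against its label in these genes. Sham2 was also the lowest library in markers of oligodendrocytes (2859 CPM, against 8531 to 10482 in the other 5). Striatal markers (6 genes) summed to 3688 CPM in TBI1, against 131 to 181 elsewhere. The 7 markers of hippocampal excitatory neurons were detected in every library, with sums of 552 to 712 CPM in sham and 339 to 500 CPM in TBI. Values of the members are therefore also given without Sham2 and TBI1, a choice made after seeing the data.

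The levels of the members per kb of exons spanned more than 2 orders of magnitude. Ptn was highest, at 128 ± 27.0 CPM per kb (SD, n = 6 libraries), which was 167 times the level per kb of Alk. Mdk followed at 14.0 ± 4.30 and Ptprz1 at 13.8 ± 2.29 CPM per kb, and these neighbours did not differ beyond their spread. Ltk was at 2.25 ± 0.463 CPM per kb, and its sham level, 2.41 ± 0.270, did not differ beyond the spread from that of Alkal2, 2.67 ± 0.382 (SD, n = 3 each). In TBI, Alkal2 was at 0.980 ± 0.0946 CPM per kb, next to Alk at 0.726 ± 0.175 (SD, n = 3 each). Alk was the lowest of the detected members, at 0.768 ± 0.164 CPM per kb (SD, n = 6), so that the transcript of Ltk exceeded that of Alk 2.93 times per kb of exons. Alkal1 was at 0 in all 6 libraries, where a limit of 3 counts would be 0.0718 to 0.0948 CPM per library. That limit holds for counted reads, and the deposited counts are estimates.

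**Figure D1:**
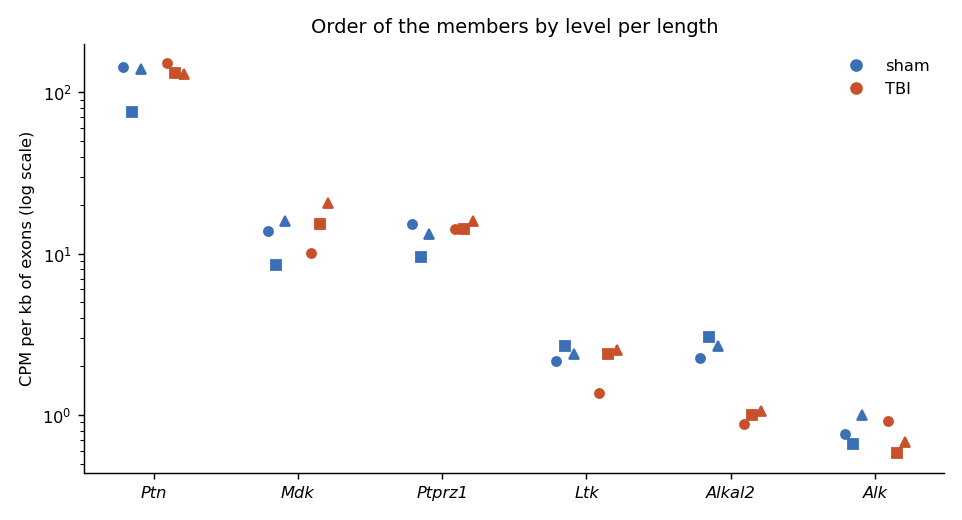
The level of each detected member per kb of merged exons (CPM per kb, log axis) in the 3 sham and the 3 TBI libraries, 1 point per library, with circles, squares and triangles for replicates 1, 2 and 3. Ptn sits highest, Mdk and Ptprz1 overlap, and Alkal2 lies beside Ltk in sham and beside Alk in TBI.

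Alkal2, which encodes the ligand of ALK and LTK, was lower in every TBI library than in any sham library. It had 139, 184 and 156 counts across Sham1 to Sham3 against 54, 48 and 57 across TBI1 to TBI3. Scaled to library size these were 3.43, 4.58 and 4.06 CPM in sham and 1.32, 1.52 and 1.60 CPM in TBI, so the TBI libraries lay close together and the sham libraries were more spread. Mean levels were 4.02 ± 0.577 CPM (SD, n = 3) without and 1.48 ± 0.143 CPM (SD, n = 3) with injury. Mean sham was 2.72 times the TBI mean, and the lowest sham library was 2.14 times the highest TBI library. The log2 fold change from edgeR was -1.44 (standard error 0.269), the third smallest p among 9133 lower genes. Among the lower genes, Tmem70 was just before Alkal2 in that order, with a log2 fold change of -1.04, and Ptgs2 just after, with -1.66. These values chose Alkal2 and are a description, so no p is given. Alkal1, the other ligand gene, gave no value to compare.

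Since the groups were separate in Alkal2, no library left out could turn the sign of its difference. Its log2 fold change was -1.34 without Sham2, -1.37 without TBI1 and -1.26 without both. Acp1, which shares exonic bases with Alkal2, had 93.2, 89.6 and 84.0 CPM in Sham1 to Sham3 and 76.8, 79.1 and 86.9 CPM in TBI1 to TBI3. The groups overlapped in Acp1. Its log2 fold change was -0.14 (standard error 0.108, edgeR adjusted p 0.982). Per kb of exons Acp1 exceeded Alkal2 12.8 times over the 6 libraries and 22.7 times in TBI, and what share of the counts of Alkal2 came from Acp1 transcripts was not tested. Of the 7 markers of hippocampal excitatory neurons, 6 had negative log2 fold changes (median -0.97) and 1, Wfs1, a positive value of 0.21. An unadjusted p under 0.05 was reached by 1 of 7, Grik4, where 2.13% of all genes tested were lower at that p, and none was called. By the mean log2 difference from sham over the 7 markers, TBI1 was lowest (-1.95, against -0.27 in TBI2 and -0.87 in TBI3), while by the summed CPM TBI3 was lowest (339, against 396 in TBI1 and 500 in TBI2). C1ql2, a marker of the dentate gyrus, was at 2.45 CPM in TBI1 against 63.4 and 39.6 CPM in TBI2 and TBI3, and Wfs1 was highest in TBI1. Without TBI1 all 7 were negative with a median of -0.57 and 1 at an unadjusted p under 0.05, and without Sham2 and TBI1 there were 2 at that p. In bulk tissue fewer cells of a type and less RNA per cell cannot be told apart, and the part of these neurons in the level of Alkal2 was not tested. Of 10 neuronal activity genes, 8 had negative log2 fold changes and 1, Npas4, reached an unadjusted p under 0.05. Among all genes tested 4.29% reached that p. Without TBI1 all 10 were negative and 5 reached that p, beside 836 of the 19319 genes then tested, and without Sham2 7 were negative and 0 with a negative value reached it. The median of the 10 was -0.56 with all libraries, -1.003 without TBI1 and -0.21 without Sham2. Summed over the 10 genes, the level was 475 to 805 CPM in sham and 228 to 755 CPM in TBI. The part of neuronal activity in the level of Alkal2 was not tested.

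**Figure D2:**
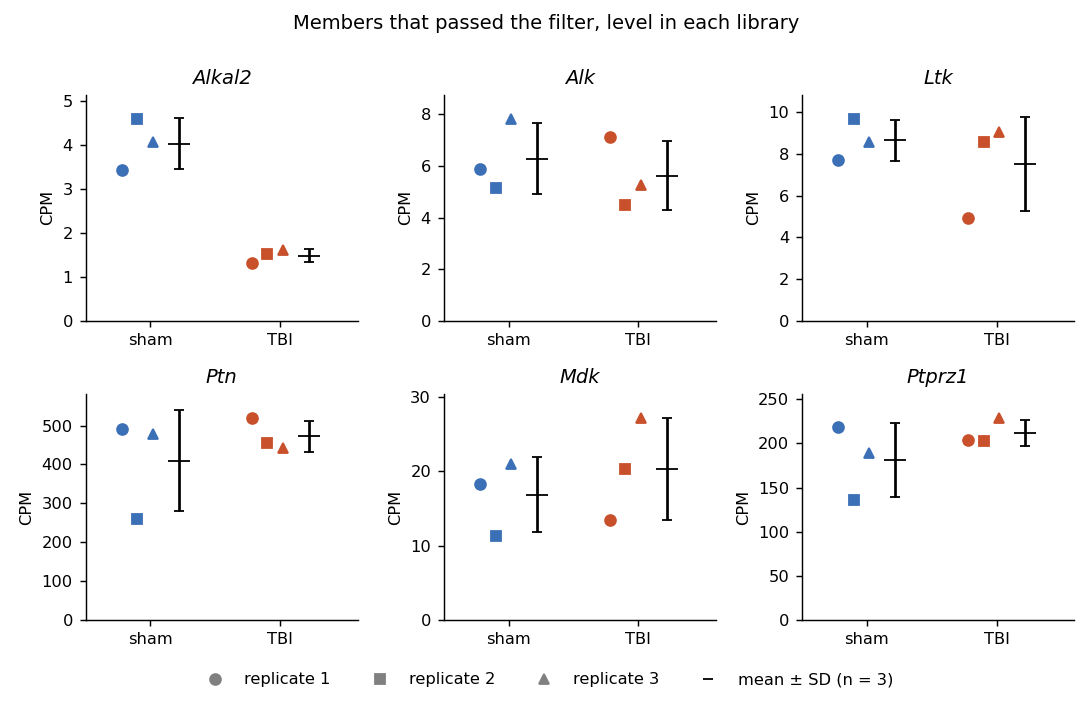
The level in CPM of the 6 detected members in each sham (blue) and TBI (orange) library, with circles, squares and triangles for replicates 1, 2 and 3 and the mean ± SD (n = 3) beside them. The groups are separate for Alkal2 (3.43 to 4.58 against 1.32 to 1.60 CPM) and overlap for the other 5.

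Neither receptor gene differed detectably between the groups. Alk, the receptor tyrosine kinase, had 239, 207 and 300 counts across Sham1 to Sham3 against 291, 142 and 188 across TBI1 to TBI3. Per library this was 5.90, 5.15 and 7.81 CPM in sham and 7.12, 4.48 and 5.28 CPM in TBI, where the highest TBI library lay within the sham range. For Alk the log2 fold change was -0.16 (standard error 0.277, edgeR adjusted p 0.984). It moved from 0.022 without Sham3 to -0.36 without TBI1, and it was -0.49 without Sham2 and TBI1.

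Ltk, the related kinase that shares the ALKAL ligands, had 313, 388 and 329 counts across Sham1 to Sham3 against 202, 271 and 322 across TBI1 to TBI3. Its CPM were 7.72, 9.66 and 8.56 in sham and 4.94, 8.56 and 9.04 in TBI. TBI1 was the low library, and TBI2 and TBI3 lay within the sham range. Ltk had a log2 fold change of -0.20 (standard error 0.276, edgeR adjusted p 0.982), and 0.025 without TBI1. Relative to the receptors, the level of Alkal2 per kb was 1.11 ± 0.0414 times that of Ltk in sham and 0.493 ± 0.124 times in TBI, and 3.41 ± 1.02 and 1.42 ± 0.411 times that of Alk (SD, n = 3 each). Both ratios were lower in every TBI library, as the choice of Alkal2 makes likely.

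The pleiotrophin and midkine system showed no called difference. Ptn, which encodes the growth factor pleiotrophin, had 19889, 10416 and 18329 counts across Sham1 to Sham3 against 21183, 14405 and 15794 across TBI1 to TBI3. Its levels were 491, 259 and 477 CPM in sham and 519, 455 and 443 CPM in TBI, so that Sham2 was low and the other 5 libraries lay together. Its log2 fold change of 0.21 (standard error 0.247, edgeR adjusted p 0.982) became -0.036 without Sham2 and -0.11 without Sham2 and TBI1. Ptprz1, the phosphatase receptor of both growth factors, had 8849, 5455 and 7256 counts across Sham1 to Sham3 against 8311, 6427 and 8137 across TBI1 to TBI3. The CPM were 218, 136 and 189 in sham and 203, 203 and 228 in TBI, again with Sham2 lowest. Its log2 fold change was 0.23 (standard error 0.185, edgeR adjusted p 0.982), and 0.055 without Sham2.

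Mdk, the gene of midkine, had 739, 452 and 808 counts across Sham1 to Sham3 against 550, 644 and 967 across TBI1 to TBI3. The levels were 18.2, 11.3 and 21.0 CPM in sham and 13.5, 20.3 and 27.1 CPM in TBI, the widest spread among the members other than Alkal2 (coefficient of variation 30.7% over the 6 libraries). For Mdk the log2 fold change was 0.27 (standard error 0.330, edgeR adjusted p 0.982). It was 0.048 without Sham2, -0.0038 without TBI3 and 0.50 without TBI1.

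Ptn, Mdk and Ptprz1 shared their lowest library, Sham2. Across the 6 libraries the log2 CPM of Ptn and Ptprz1 had a Pearson r of 0.887, and without Sham2 it was -0.34 (n = 5), so the relation rested on that library. Markers of astrocytes summed to 3321 CPM in Sham2, against 4270 to 5314 CPM in the other 5 libraries. Most of that sum was Slc1a2, the glutamate transporter GLT-1, at 2012 CPM in Sham2 and 2468 to 3749 CPM elsewhere. Without Slc1a2 the other 6 markers summed to 1309 CPM in Sham2, next to 1303 CPM in TBI1 and 1503 to 1802 CPM in the other 4 libraries, and single markers went both ways. Gja1, the gap junction gene of connexin 43, was lowest in Sham2 (99.1 CPM, against 177 to 329 CPM), as was the transporter gene Slc1a3, and the water channel gene Aqp4 was highest there. For oligodendrocyte precursors the sum was 156 CPM in Sham2, against 192 to 233 CPM, and no marker of either list was at 0. The part of these cells in the levels of Ptn and Ptprz1 was not tested. The Ptn level per kb was 9.24 ± 1.28 times that of Ptprz1 in sham and 9.31 ± 1.26 times in TBI (SD, n = 3 each).

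**Figure D3:**
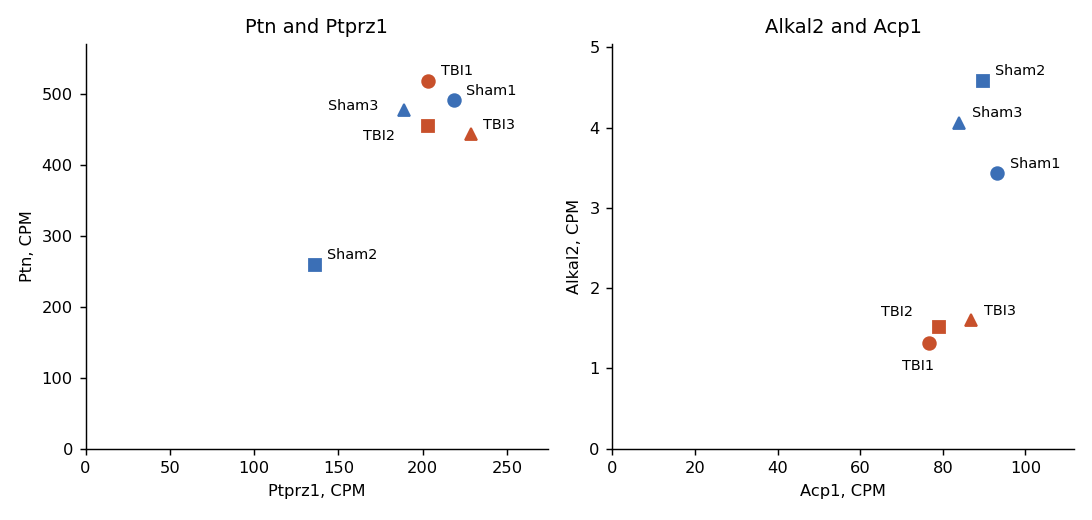
Levels in CPM of Ptn against Ptprz1 (left) and of Alkal2 against Acp1 (right), 1 labelled point per library, sham in blue and TBI in orange. Sham2 lies apart at 259 CPM of Ptn and 136 CPM of Ptprz1, and on the right the groups are separate on the axis of Alkal2 but not on that of Acp1.

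Across all 18795 genes tested, edgeR's quasi-likelihood test called 0 genes (0%) at the thresholds of the study, which ask for a 1.5-fold change in either direction, p under 0.05 and adjusted p under 0.1. On p under 0.05 alone, without adjustment, 806 genes passed (4.29%), 2.16% higher and 2.13% lower in TBI. No member was called, and among the 5 tested members other than Alkal2 none reached an unadjusted p under 0.05. DESeq2, the tool of the study, called 46 genes with its defaults (0.219%), and Alkal2 was the only member among them. The groups did not overlap in 1 of the 6 members, Alkal2, and in 1923 of all genes tested (10.2%), of which those lower in TBI were 5.46% and those higher 4.77% of the genes tested. Since Alkal2 was chosen on this contrast, nothing is read from either count. For any single gene, 0.1 is the smallest p that exact permutation of 3 against 3 mice allows.

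**Figure D4:**
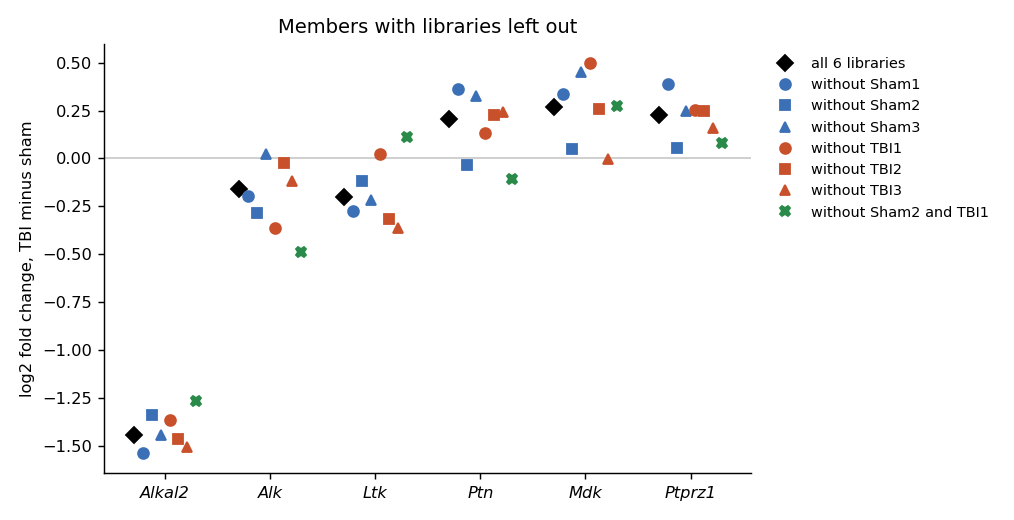
The log2 fold change (TBI minus sham, edgeR) of the 6 detected members with all libraries (black diamonds), with each library left out in turn, and without Sham2 and TBI1 together (green crosses). Alkal2, whose groups are separate so that it cannot cross 0, lies between -1.54 and -1.26, and the values of Alk, Ltk, Ptn and Mdk lie on both sides of 0.

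No gene downstream of ALK was called by edgeR. Of 24 adaptors and effectors, 12 were higher and 12 lower, with a median log2 fold change of -0.011, against 0.0091 over all genes tested. Of the 24, 2 reached an unadjusted p under 0.05, beside 4.29% of all genes tested, and none was called. They were a pair of PI3K regulatory subunits with opposite signs. Pik3r1 was at 133, 133 and 145 CPM across Sham1 to Sham3 against 161, 177 and 171 CPM across TBI1 to TBI3 (log2 fold change 0.30, standard error 0.102, edgeR adjusted p 0.982). Pik3r2 was at 157, 162 and 139 CPM in sham and at 122, 128 and 109 CPM in TBI, with a log2 fold change of -0.36. Neither gene had overlapping groups. The groups were separate in 5 of the 24, Ptpn11 among them, beside 10.2% of all genes tested. Ptpn11, the phosphatase SHP2 and one of the most abundant effectors, went from 298 ± 31.9 CPM to 358 ± 16.8 CPM (SD, n = 3 each), and its log2 fold change of 0.26 was not called.

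The 14 genes of the RAS-ERK cascade were the most even list, with log2 fold changes from -0.16 to 0.18, a median of 0.0083 and 0 genes at an unadjusted p under 0.05. Map2k1, which encodes the kinase MEK1, was at 360 ± 31.7 CPM in sham against 322 ± 50.2 CPM after TBI (SD, n = 3 each). Braf and Araf, kinases upstream of MEK, had log2 fold changes of -0.16 (-0.075 without Sham1) and 0.18 (0.061 without TBI3).

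Among 14 ERK feedback and ALK-responsive genes, 6 were higher and 8 lower, with a median log2 fold change of -0.076. At an unadjusted p under 0.05 were 2 of the 14, both lower, where 2.13% of all genes tested were lower at that p. Dusp4, a phosphatase that inactivates ERK in the nucleus, was at 31.1, 34.1 and 24.6 CPM in Sham1 to Sham3 and at 11.5, 17.8 and 12.4 CPM in TBI1 to TBI3. The groups were separate, and the log2 fold change of Dusp4 was -1.11 (standard error 0.228, edgeR adjusted p 0.982). With Spred2 and Spry1, 3 of the 14 were lower with separate groups, beside 5.46% of all genes tested. With DESeq2's defaults the adjusted p of Dusp4 was 0.0239, and across all alternatives it ran from 0.0187 to 0.9999. Without Sham2 and TBI1 its log2 fold change was -0.89. Spred2, an inhibitor of RAF activation, was at 118 ± 4.36 CPM in sham against 97.4 ± 5.93 CPM after TBI (SD, n = 3 each), with a log2 fold change of -0.27 and an adjusted p of 0.982 from the edgeR test. Etv1, a transcription factor of the ETS family, and Spred1 had the highest mean CPM of the list, not scaled to exon length. Their log2 fold changes were 0.15 (standard error 0.375) and 0.12 (standard error 0.267), and both changed sign when single libraries were left out.

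The other binding partners of pleiotrophin and midkine, 18 genes that include proteoglycans, integrins, lipoprotein receptors, Ncl and Notch2, split into 10 higher and 8 lower around a median log2 fold change of 0.030 (-0.14 without TBI1 and 0.19 without Sham2), and 0 reached an unadjusted p under 0.05. Lrp1, an endocytic receptor, was at 446 ± 40.1 CPM in sham against 508 ± 52.8 CPM after TBI, and Ncl, the gene of nucleolin, at 368 ± 43.9 and 375 ± 29.3 CPM (SD, n = 3 each). Sdc2, a heparan sulfate proteoglycan, had a log2 fold change of 0.31 (0.18 without TBI1) and the integrin subunit gene Itga4 one of -0.69, and their groups overlapped. That of Itga4 was -0.38 without TBI1 and -1.22 without TBI2.

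Of 14 ligands, substrates and the paralog of PTPRZ1, 10 were lower and 4 higher, with a median log2 fold change of -0.088. Nrcam, a cell adhesion molecule of the immunoglobulin superfamily, was the single gene at an unadjusted p under 0.05, and its groups were separate. Of all genes tested, 2.13% were lower at that p and 5.46% were lower with separate groups. It was at 254, 291 and 265 CPM across Sham1 to Sham3 against 208, 241 and 214 CPM across TBI1 to TBI3 (log2 fold change -0.29, standard error 0.113, edgeR adjusted p 0.982). Ptprg, the paralog of Ptprz1, had a log2 fold change of -0.40 (standard error 0.266), and -0.74 without TBI2 and -0.26 without TBI3. Dlg4, a postsynaptic scaffold, and Git1, a substrate of the phosphatase, had the highest mean CPM, not scaled to exon length. Their log2 fold changes were -0.044 and -0.25, the latter from -0.36 to -0.13 with 1 library left out.

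Of the 4 other kinases of the insulin receptor group, Ros1 was at 0 in all libraries. Insrr, the insulin receptor-related receptor, was low throughout, with 4, 12 and 9 counts across Sham1 to Sham3 against 25, 24 and 27 across TBI1 to TBI3. Its groups were separate, as in 10.2% of all genes tested, and it was the 1 of 3 tested at an unadjusted p under 0.05, which 2.16% of all genes reached with a higher value in TBI. It had a log2 fold change of 1.74 (standard error 0.562, edgeR adjusted p 0.982). Insr, the insulin receptor, and Igf1r, the receptor of insulin-like growth factor 1, had log2 fold changes of 0.12 (0.029 without Sham3) and -0.094, with separate groups in Igf1r.

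**Figure D5:**
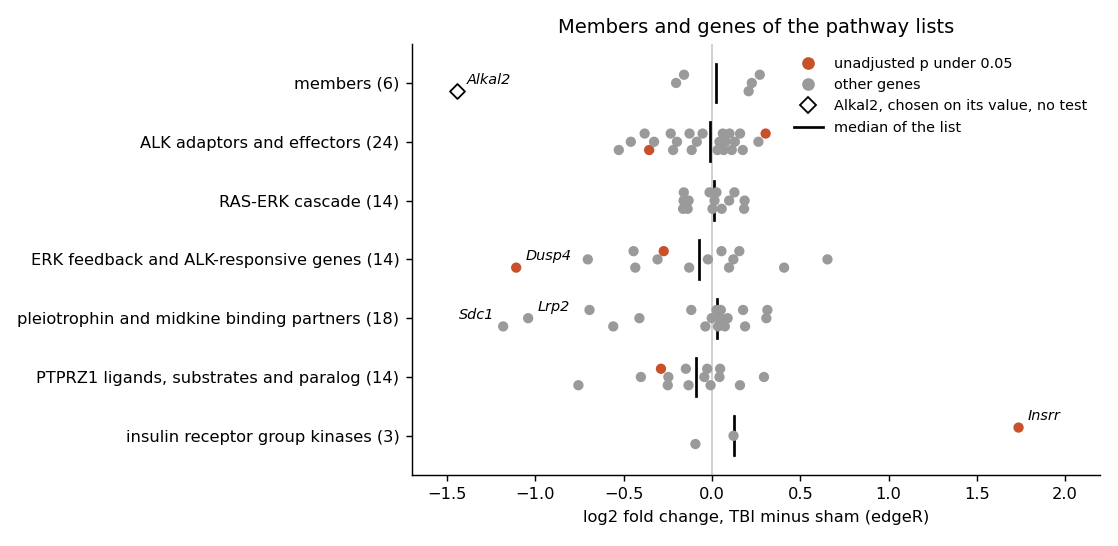
The log2 fold change (TBI minus sham, edgeR) of the 6 detected members and of the tested genes of each pathway list, 1 point per gene, with the number tested in parentheses and the median as a black bar. Genes at an unadjusted p under 0.05 are orange, Alkal2 is an open diamond because it was chosen on its value, and the medians lie between -0.088 and 0.12.

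The genes whose log2 CPM followed that of Alkal2 most closely over the 6 libraries were Grpr, Gm7432, Fam229a, Slitrk1 and Catspere2, with Pearson r from 0.974 to 0.988. They were picked from 18795 genes for this likeness and share the libraries and the separation of the groups with Alkal2. Grpr, the gastrin-releasing peptide receptor, had 40, 52 and 36 counts across Sham1 to Sham3 against 8, 8 and 12 across TBI1 to TBI3. Fam229a had 12, 16 and 10 counts in sham and 0 in each TBI library. Slitrk1, a synaptic adhesion molecule, was the one with the highest level, 73.4 ± 0.420 CPM in sham against 57.8 ± 1.84 CPM after TBI (SD, n = 3 each). Catspere2 had 102, 149 and 123 counts in sham and 59, 59 and 60 in TBI, and Gm7432 had 19 to 22 counts in sham and 10 to 12 in TBI.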

How the data were processed

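RNA of 3 sham and 3 TBI hippocampi was measured, with groups and replicate numbers from the sample titles. Per the labels and methods, the authors used FastQC for read quality, HISAT2 for alignment to GRCm38 and StringTie for quantification. They deposited an unnormalized estimated count for each gene, and all values were whole. The versions of these 3 tools, the annotation and the strandedness are not given in the sources used here. The value 4 occurred 5109 times and 3 occurred 2325 times, so a count is not a read. Symbols and exons came from GENCODE vM21, and 52403 of 52550 identifiers matched.

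R 4.3.3 with edgeR 4.0.16 was used (filterByExpr, TMM, quasi-likelihood test, Benjamini-Hochberg adjustment over all genes tested, standard errors from the F statistic), with DESeq2 1.42.0 as an alternative. CPM per kb is CPM over the merged exon length. Log2 CPM had a prior count of 2. The fit was tested on simulated counts. Members, gene lists and tests were chosen with earlier results of these data known. Named genes were the members, the 5 most correlated with Alkal2 and genes sharing exonic bases with a member. From each pathway list, the 2 with the highest mean CPM and the 2 with the smallest p were added. The values of 1 gene named by this rule are not reported here. Authors' comparisons were not used.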

Additional observations from a re-analysis of the deposited data

How the results depend on the processing

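The tool moved the number of called genes most, from 0 with edgeR to 46 with DESeq2's defaults and 43 with DESeq2 on the genes of filterByExpr. Under both DESeq2 settings 1 member, Alkal2, was called, against 0 with edgeR. Leaving out 1 library gave 0 to 1 calls, the 1 being Zfp664 without TBI1, and leaving out Sham2 and TBI1 together gave 3 (Tomm5, Zfp664 and Pcdhgb8). The log2 fold change of Alkal2 ran from -1.54 to -1.26 over all alternatives. With 1 library left out, that of Alk ran from -0.36 to 0.022, of Ltk from -0.37 to 0.025, of Ptn from -0.036 to 0.36 and of Mdk from -0.0038 to 0.50. For Spred1 the range was -0.14 to 0.33, for Etv1 -0.28 to 0.40, for Ncl -0.066 to 0.11 and for Dlg4 -0.21 to 0.091. Without Sham2 and TBI1, Ltk was at 0.11 and Ptn at -0.11. The median of the ERK feedback list ran from -0.27 (without TBI1) to 0.046 with 1 library left out and was -0.23 without Sham2 and TBI1, and that of the PTPRZ1 list ran from -0.17 (without TBI1) to 0.011 (without Sham1). The medians of the other lists turned sign too, from -0.065 to 0.020 for the adaptors and effectors, -0.040 to 0.019 for the RAS-ERK cascade and -0.14 to 0.19 for the binding partners, but not that of the insulin receptor group (0.029 to 0.18). The causes were not tested. The sources used here do not say whether replicate numbers pair the mice. Correlations of deviations were -0.0996, -0.065 and 0.153 for the numbers 1 to 3, and 0.21 for Sham2 with TBI1. With 3 libraries per group these values cannot decide it. With the number as a replicate block, 0 genes were called and Alkal2 was at -1.44. Counts of Insrr, Grpr, Gm7432 and Fam229a were too low in some settings for a value. The counts are estimates, so counting error cannot be taken from them directly.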

Other observations

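Other marker lists bear on which cells the libraries held. Inhibitory neuron markers (6 genes) summed to 798 to 942 CPM in sham and to 1704, 830 and 1288 CPM in TBI1 to TBI3. Gad1, Gad2 and Slc32a1 were highest in TBI1 (522, 518 and 361 CPM), the library that stood apart in striatal markers. Pvalb was at 470 CPM in TBI3, against 38.4 to 97.9 CPM elsewhere, and Sst and Vip had negative log2 fold changes. At an unadjusted p under 0.05 was 1 gene, Slc32a1, where 2.16% of all genes tested were higher at that p. Choroid plexus markers, Ttr among them, varied within both groups, with 2016, 51.1 and 2061 CPM in Sham1 to Sham3 and 240, 2342 and 258 CPM in TBI1 to TBI3. All 6 markers of microglia and macrophages had positive log2 fold changes (median 0.38), with 0 at an unadjusted p under 0.05, but without TBI1 the median was 0.053 with 2 of 6 negative, and without Sham2 and TBI1 it was -0.0027 with 3 of 6 negative. The summed levels of neurons, endothelium and pericytes, ependyma, meninges, and thalamus and habenula overlapped between the groups, and 0 genes of these 5 lists reached an unadjusted p under 0.05.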
